A study of Mus musculus with 8 samples.

Results

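Insulin-like growth factor 1, its receptor and the IGF-binding proteins were followed across 3 mouse cell lines that differ in p53 and in self-renewal pattern. The set holds 8 genes, Igf1, Igf1r, Igfbp2, Igfbp3, Igfbp4, Igfbp5, Igfbp6 and Igfbp7, out of 15653 genes named on the arrays. They were found by matching the RefSeq transcript that names each probe set to these symbols, and 13 of 22523 probe sets belong to them. Probe sets with identical values on all arrays were counted once, which left 9 value profiles of 18172, 1 for each gene and a second for Igf1. The second Igf1 profile was not matched by the RefSeq table and takes its name from the gene table published with the study. That table lists only genes the study called on these same arrays, so the profile entered the set through such a call. Counts are therefore also given without it.

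IGF1 is a secreted growth factor that acts through the IGF1 receptor, a tyrosine kinase that signals through insulin receptor substrates to PI3K and AKT and through SHC1 and GRB2 to the MAP kinases. IGF-binding proteins are secreted proteins that hold IGFs outside the cell, and proteases that cut them set the growth factor free. Fibroblasts are a common source of both the ligand and several binding proteins.

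ASYM cells (line Ind-8) are fetal mouse fibroblasts that lack endogenous p53 and carry a wild-type mouse p53 cDNA under a metallothionein promoter, which zinc switches on. In zinc they divide asymmetrically, a cycling cell giving a cycling and an arrested daughter. SYM cells (line Con-3) lack p53, and the study's methods describe them as carrying the empty promoter vector whereas the sample labels describe a congenic parent. p53SYM cells (line tI-3) were made from Ind-8 by adding a constitutively expressed IMPDH II cDNA, which keeps division symmetric although p53 is induced. All cultures were kept in 65 µM ZnCl2 for 48 h in medium with dialyzed serum and puromycin, and G418 was added for p53SYM cells alone. ASYM and SYM were measured on 3 arrays each and p53SYM on 2, with a biological replicate culture behind each array. Each state is a single cloned line, so state, line and, for p53SYM, G418 cannot be told apart. The values are RMA expression levels on the log2 scale, where a difference of 1 is a doubling.

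The labels were checked against genes they predict. Cdkn1a, the p53-induced inhibitor of cell cycle kinases, was at 9.70, 9.70 and 9.59 in ASYM, 5.73, 5.81 and 6.03 in SYM, and 7.55 and 7.33 in p53SYM. Both p53-expressing lines lay above SYM on every array, with p53SYM between the others. Among 6 p53 target genes, 5 were higher in ASYM than in SYM, 6 were higher in ASYM than in p53SYM and 5 were higher in p53SYM than in SYM (limma, adjusted p under 0.05). With the level of the hybridization controls, described next, as a block, the calls of Trp53inp1 (1.0, adjusted p = 0.34, from 1.35) and Sesn2 (1.34, adjusted p = 0.18, from 1.09) against p53SYM and that of Bax in p53SYM against SYM (0.41, adjusted p = 0.075, from 0.47) were lost. Among single arrays left out, the call of Trp53inp1 against p53SYM was lost for p53SYM replicate 2 (0.082), and that of Sesn2 for ASYM replicate 2 (0.06) or p53SYM replicate 1 (0.13). Trp53 itself was higher than in SYM by 0.53 in ASYM and by 0.39 in p53SYM (adjusted p = 0.0019 and 0.014), the latter call being lost without p53SYM replicate 2 (adjusted p = 0.11) and with that block (adjusted p = 0.10). The zinc-responsive metallothionein genes ran from 13.47 to 13.95 for Mt1 and from 12.94 to 13.56 for Mt2 over the 8 arrays. Mt2 was lower in p53SYM than in SYM (-0.39, adjusted p = 0.025), which was lost with the block (0.20), with arrays quantile-normalized again (0.25) and without SYM replicate 2 (0.087) or p53SYM replicate 2 (0.22). Impdh1, at 7.84 to 8.19, passed in no comparison. Impdh2 did not stand out in the line with the IMPDH II cDNA, at 12.34 and 12.38 against 12.16 to 12.22 in ASYM (adjusted p = 0.16) and 12.51 to 12.56 in SYM. It was lower in ASYM than in SYM (-0.34, adjusted p = 0.011). Whether the probes of Impdh2 and Trp53 can read the transgenes is not given in the sources used here.

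The ASYM against SYM, ASYM against p53SYM and p53SYM against SYM comparisons are called A, B and C. A technical difference between the arrays precedes them. The 14 hybridization-control probe sets averaged 8.98 to 9.16 on the ASYM arrays and SYM replicates 1 and 2, but reached 9.62 on the last SYM replicate and 9.43 and 9.71 in p53SYM. SYM replicate 3 also had 18S ribosomal RNA control values averaging 10.63, against 5.58 to 6.46 on the others. ASYM and p53SYM share no level of these controls. In a fit with the level as a block, the correction is therefore set by SYM replicate 3 against SYM replicates 1 and 2. It rests on the single array with high 18S values. In A this fit equals leaving out SYM replicate 3, and in C it sets p53SYM against SYM replicate 3 alone. Calls lost with the block thus depend on that array.

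The ligand was lower in ASYM cells than in p53-null SYM cells. Igf1 encodes the growth factor itself. Its first profile was at 4.18, 4.44 and 4.50 in ASYM, 4.51, 5.47 and 5.09 in SYM, and 4.29 and 4.44 in p53SYM. The second profile was at 5.80, 5.90 and 6.20 in ASYM, 6.18, 6.95 and 7.06 in SYM, and 6.24 and 6.36 in p53SYM. In both profiles SYM replicate 1 lay close to the other lines and replicates 2 and 3 lay well above them. Igf1 was lower in ASYM than in SYM by the first profile (log2 difference -0.65, SE 0.201, adjusted p = 0.042) and 1.70-fold lower by the second (-0.76, SE 0.205, adjusted p = 0.023). The second profile entered the set through a call on these same arrays, so its result is no separate support. Values of the first profile in ASYM and p53SYM lay close to the 25th percentile of their arrays, which was 4.19 to 4.25 in ASYM and 4.39 and 4.43 in p53SYM, so signal near background limits the size of its difference. For p53SYM against SYM the differences were -0.65 and -0.43, and neither passed the test (adjusted p = 0.056 and 0.20). ASYM and p53SYM differed by 0.01 and -0.33, with adjusted p = 0.99 and 0.29. In bulk cultures, fewer cells with the transcript and less transcript per cell cannot be told apart.

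The Igf1 call is fragile. The adjusted p of the first profile passed 0.05 on leaving out ASYM replicate 1 (0.13), 2 (0.088) or 3 (0.059), SYM replicate 2 (0.13) or 3 (0.12), or either p53SYM array (0.060 each), and over all alternatives ran from 0.0029 to 0.13. That of the second profile passed it without ASYM replicate 1 (0.078) or 2 (0.076) or SYM replicate 2 (0.085) or 3 (0.087), within a range of 0.00094 to 0.087. Neither profile was called with the hybridization-control level as a block, which for ASYM against SYM is the same fit as leaving out SYM replicate 3. The differences were then -0.615 (adjusted p = 0.12), from -0.65, and -0.601 (adjusted p = 0.087), from -0.76. The call of the first was also lost with arrays quantile-normalized again (-0.59, adjusted p = 0.054) and with only the ASYM and SYM arrays fitted (adjusted p = 0.06). Other settings added calls. Without SYM replicate 1 both profiles were called lower in p53SYM than in SYM, at -0.91 and -0.71 (adjusted p = 0.0033 and 0.0071). The first was also called there with replicate number as a replicate block (-0.61, adjusted p = 0.029), with probe sets under the 25th percentile left out (adjusted p = 0.048) and with arrays quantile-normalized again (-0.78, adjusted p = 0.025). The replicate block also brought a call of the second profile in ASYM against p53SYM (-0.47, adjusted p = 0.046).

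The receptor changed little. Igf1r was at 8.14, 8.05 and 8.16 in ASYM, 8.01, 7.95 and 7.91 in SYM, and 7.68 and 7.93 in p53SYM. Every ASYM array lay above every array of the other lines, by small steps. It was 1.24-fold higher in ASYM than in p53SYM (log2 difference 0.31, SE 0.105, adjusted p = 0.045). This call was lost in 13 of 18 alternatives, over which the adjusted p ran from 0.04 to 0.51, among them arrays quantile-normalized again (0.13, adjusted p = 0.41). It was lost without p53SYM replicate 1 (0.19, adjusted p = 0.29), without any 1 ASYM array (adjusted p = 0.097, 0.062 and 0.10) and without any 1 SYM array (adjusted p = 0.050, 0.067 and 0.051). Against SYM the differences were 0.16 for ASYM and -0.15 for p53SYM (adjusted p = 0.26 and 0.33).

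**Figure D1:**
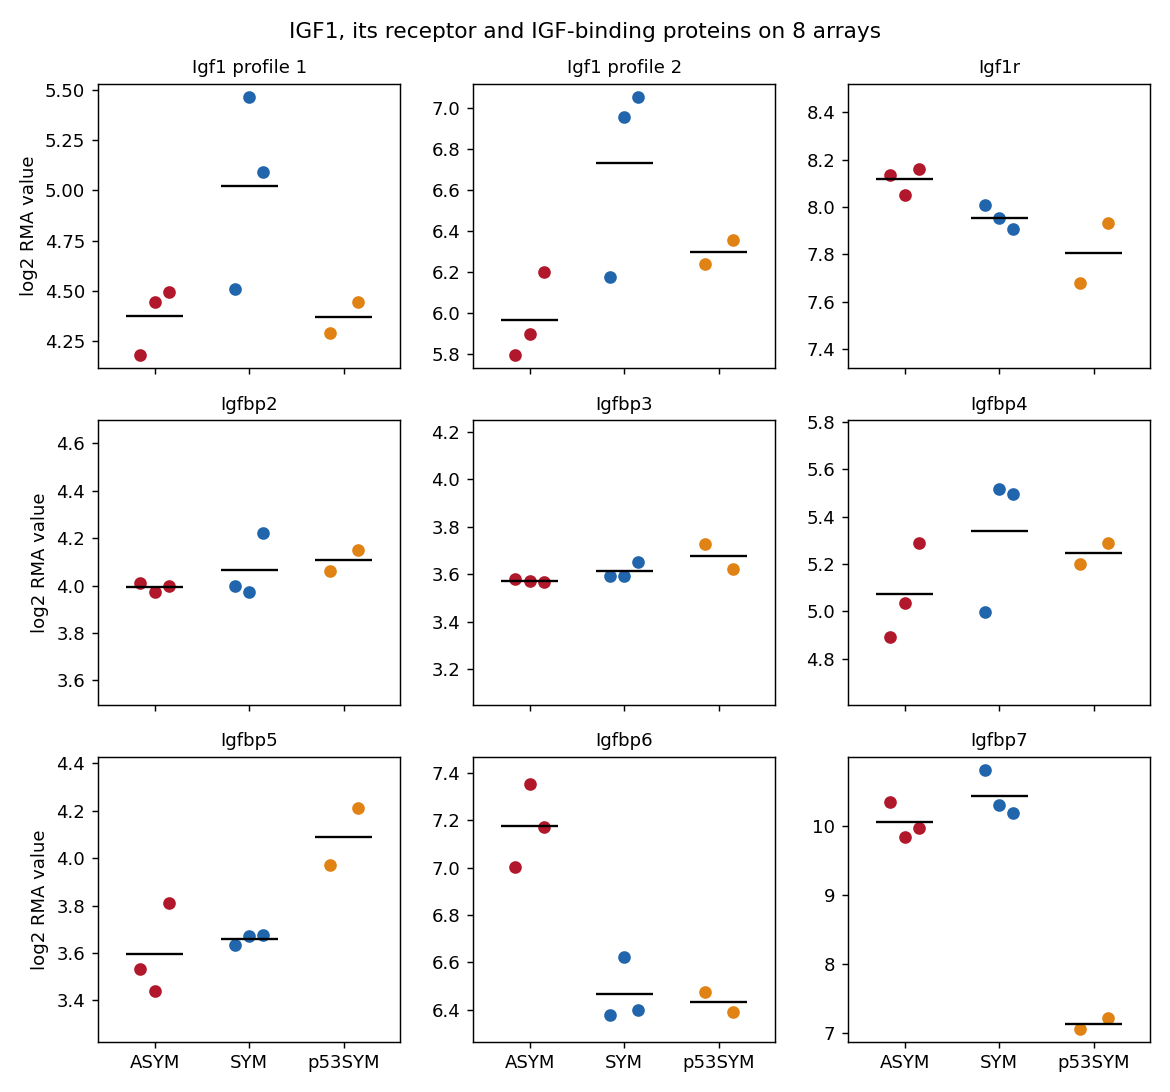
Log2 RMA value of each Igf1, Igf1r and IGF-binding protein profile on 8 arrays, points for arrays and bars for line means. Every ASYM array lies above the others for Igfbp6, and Igfbp7 was at 7.06 and 7.21 on the p53SYM arrays against 9.83 or more elsewhere.

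Among the binding proteins, Igfbp7 and Igfbp6 had the lowest adjusted p, with different patterns over the lines. The 250 bases before their annotated starts are shown for that reason. They come from RefSeq on build GRCm38.p6, 5′ to 3′ on the strand of the gene. Igfbp7 is on the minus strand (chr5:77408046-77408295) and Igfbp6 on the plus strand (chr15:102143936-102144185). Capitals mark letters found on either strand. The motifs searched were the GC box, GGGCGG, the CArG box and the p53 half-site by name. The TATA box was searched as TATAAA.
Igfbp7: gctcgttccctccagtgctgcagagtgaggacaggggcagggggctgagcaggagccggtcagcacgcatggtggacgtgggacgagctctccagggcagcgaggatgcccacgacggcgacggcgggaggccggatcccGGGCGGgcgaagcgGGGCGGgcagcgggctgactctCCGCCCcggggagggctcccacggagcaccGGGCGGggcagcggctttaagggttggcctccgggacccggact
Igfbp6: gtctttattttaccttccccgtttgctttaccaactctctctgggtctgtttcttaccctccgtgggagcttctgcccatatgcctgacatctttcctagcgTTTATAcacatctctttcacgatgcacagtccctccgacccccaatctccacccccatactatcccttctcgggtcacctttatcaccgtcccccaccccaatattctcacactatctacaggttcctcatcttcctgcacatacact
The Igfbp7 window held 4 GC boxes, which do not overlap, and 26 CpG, and 74.0% of its bases were G or C. The Igfbp6 window held 1 match to the TATA letters, on the opposite strand, and 7 CpG, with 49.6% G or C. Of 32851 such windows, 32.7% held a GC box, 12.4% the TATA letters, 1.47% a CArG box and 7.13% a p53 half-site, and the median window held 6 CpG and 52.4% G or C. The letters of a CArG box or p53 half-site were in neither window. These are letter matches and not sites.

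Igfbp7 was far lower in p53SYM than in both other lines. This secreted protein binds IGFs weakly compared with the classical binding proteins. It was at 10.35, 9.83 and 9.97 in ASYM, 10.80, 10.30 and 10.18 in SYM, and 7.06 and 7.21 in p53SYM. The p53SYM arrays lay far below all the others, and the ASYM and SYM arrays overlapped. It was 7.53-fold lower in p53SYM than in ASYM (log2 difference of ASYM minus p53SYM 2.91, 95% interval 2.48 to 3.34, adjusted p = 1.4e-05) and 9.79-fold lower than in SYM (p53SYM minus SYM -3.29, interval -3.72 to -2.86, adjusted p = 4.5e-06). ASYM and SYM differed by -0.38 (SE 0.173, adjusted p = 0.16). Both calls held in all 18 alternatives, with differences of 2.54 to 3.02 and -3.42 to -3.04. With the hybridization-control level as a block they were 2.54 (adjusted p = 0.0055) and -3.04 (adjusted p = 0.00021). The latter is by construction the difference between the arrays with high controls, 2 of p53SYM and 1 of SYM.

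Igfbp6 was higher in ASYM than in both other lines. It encodes a binding protein that prefers IGF2 to IGF1. It was at 7.0, 7.35 and 7.17 in ASYM, 6.38, 6.62 and 6.40 in SYM, and 6.47 and 6.39 in p53SYM. All ASYM arrays lay above all the others, and SYM and p53SYM overlapped. It was 1.63-fold higher in ASYM than in SYM (log2 difference 0.71, interval 0.46 to 0.95, adjusted p = 0.0016) and 1.67-fold higher than in p53SYM (0.74, interval 0.47 to 1.02, adjusted p = 0.0022). p53SYM and SYM differed by -0.04, with an interval of -0.31 to 0.24. No omitted array ended either call. With the hybridization-control level as a block the difference from p53SYM was 0.64 (adjusted p = 0.14, within 0.002 to 0.14 over its alternatives), while that from SYM among the arrays with low controls was 0.67. The rank product test called it in neither comparison (pfp 0.11 and 0.21).

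Igfbp4, a binding protein whose cleavage by PAPPA releases IGF, overlapped between the lines. It was at 4.89, 5.04 and 5.29 in ASYM, 5.00, 5.52 and 5.50 in SYM, and 5.20 and 5.29 in p53SYM. None of its 3 differences passed the test, the largest being -0.27 for ASYM minus SYM (adjusted p = 0.25). It was called at -0.44 (adjusted p = 0.035) without SYM replicate 1.

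Igfbp2, Igfbp3 and Igfbp5 sat below the 25th percentile of every array, where signal and background are hard to separate. Igfbp2 ran from 3.97 to 4.22 and Igfbp3, the main carrier of IGFs in blood, from 3.57 to 3.73 over the 8 arrays. Neither passed the test in any comparison. Igfbp5 was at 3.53, 3.44 and 3.81 in ASYM, 3.64, 3.67 and 3.67 in SYM, and 3.97 and 4.21 in p53SYM. Its p53SYM arrays lay above all the others, by 0.50 over ASYM (ASYM minus p53SYM -0.50, SE 0.126, adjusted p = 0.015) and by 0.43 over SYM (SE 0.126, adjusted p = 0.030). The 25th percentile also stood highest in p53SYM. It was 4.19 to 4.25 on ASYM arrays, 4.23 to 4.38 on SYM arrays and 4.39 and 4.43 on p53SYM arrays, and Igfbp5 was below it on every array. Most of the 5631 dimmest probe sets were not called. In B, 10.3% of them were called lower and 0.959% higher in ASYM, beside 15.5% and 15.6% of all probe sets, with a median of -0.14. In C, 4.24% were called higher and 0.906% lower in p53SYM, beside 10.2% and 15.1% of all, with a median of 0.07. With arrays quantile-normalized again both Igfbp5 calls were lost (-0.35, adjusted p = 0.051, and 0.34, adjusted p = 0.060), as they were with the hybridization-control level as a block (-0.48, adjusted p = 0.28, and 0.42, adjusted p = 0.16). Over all alternatives the adjusted p ran from 0.0068 to 0.28 against ASYM and from 0.018 to 0.24 against SYM. Without p53SYM replicate 2 they were lost too (-0.38, adjusted p = 0.14, and 0.31, adjusted p = 0.24), and that over SYM also without SYM replicate 1 (0.067), 2 (0.071) or 3 (0.055).

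**Figure D2:**
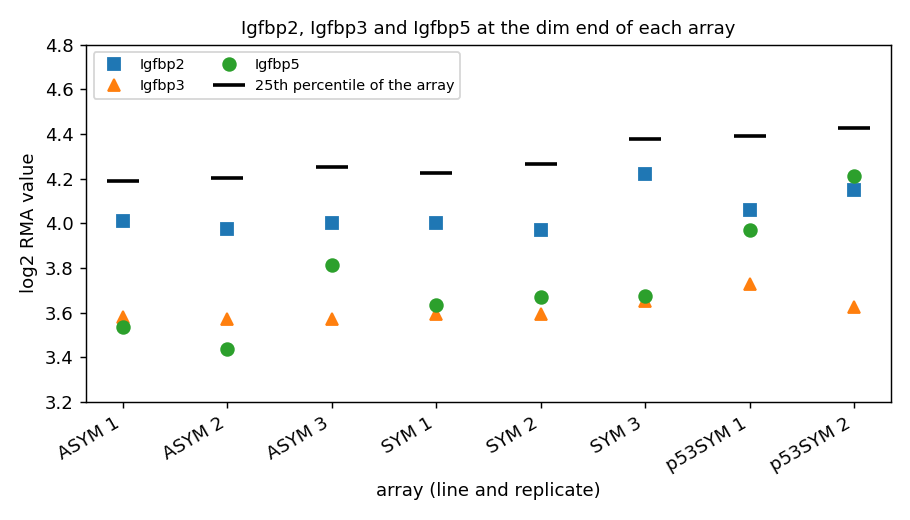
Log2 RMA values of Igfbp2, Igfbp3 and Igfbp5 on each array (symbols), with the array's own 25th percentile over all probe sets (dashes). All values lie below the dash of their array, and the dash is highest on the p53SYM arrays, at 4.39 and 4.43.

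In the A comparison, which sets p53-expressing ASYM cells against p53-null SYM cells, Igfbp6 was higher and both Igf1 profiles were lower in ASYM. Thus 1 of 9 profiles was called higher and 2 lower by limma, beside 10.9% of all 22523 probe sets called higher and 11.0% called lower. Without the second Igf1 profile limma called 1 higher and 1 lower of 8, the rank product test none, and 4 did not overlap. The rank product test, the study's own method, called no profile higher and the second Igf1 profile lower (pfp 0.037). Since that profile was named from a list of the study's calls by this method on these arrays, its call is no separate support. That call was lost without ASYM replicate 1 or 2 or SYM replicate 2 or 3. Among all probe sets the test called 484 (2.15%) higher and 324 (1.44%) lower. These became 175 and 242, 159 and 195, and 159 and 198 without ASYM replicates 1, 2 and 3. Without SYM replicates 1, 2 and 3 they became 358 and 98, 310 and 72, and 340 and 94. In 4 of 9 profiles the arrays of the lines did not overlap, beside 38.0% of all probe sets. The median log2 difference was -0.07 over the profiles and -0.06 over all probe sets.

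In the B comparison, which sets ASYM against p53SYM with p53 induced in both, Igfbp7, Igfbp6 and Igf1r were higher and Igfbp5 lower in ASYM. These are 3 and 1 of 9 profiles by limma, beside 15.6% and 15.5% of all probe sets. A fit with the hybridization-control level as a block called Igfbp7 alone and 708 of all 22523 probe sets, against 7009 without the block. Leaving out p53SYM replicate 2, with no block, limma called 3 profiles and 2781 probe sets. The rank product test called Igfbp7 alone, beside 352 of all probe sets (1.56%) higher and 87 (0.386%) lower. Without ASYM replicates 1, 2 and 3 these became 97 and 68, 99 and 64, and 86 and 52. With either p53SYM array left out, which leaves that line 1 array, nearly all the calls were higher. Arrays did not overlap in 7 of 9 profiles, beside 60.3% of all probe sets, and the medians were -0.10 and -0.06. Without the second Igf1 profile the counts were 3 and 1 of 8 by limma, 1 by rank product and 6 without overlap.

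In the C comparison, between the symmetric lines with and without p53, Igfbp5 was higher and Igfbp7 lower in p53SYM. These are 1 and 1 of 9 profiles by limma, beside 2304 (10.2%) and 3411 (15.1%) of all probe sets. With the hybridization-control level as a block limma called Igfbp7 alone, with 1139 probe sets higher and 1927 lower. With arrays quantile-normalized again it called 2 profiles, both lower, with 2550 probe sets higher and 2803 lower. The rank product test called Igfbp7 alone, beside 142 (0.63%) higher and 356 (1.58%) lower among all. Without SYM replicates 1, 2 and 3 these became 103 and 102, 80 and 96, and 84 and 84. With either p53SYM array left out, which leaves that line 1 array, all the calls were lower. Arrays did not overlap in 3 of 9 profiles, beside 51.6% of all probe sets, and the medians were -0.09 and 0.04. The counts were the same over the 8 profiles without the second Igf1 profile. The A and C comparisons share the SYM arrays, A and B the ASYM arrays, and B and C the p53SYM arrays, so their counts are not independent.

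**Figure D3:**
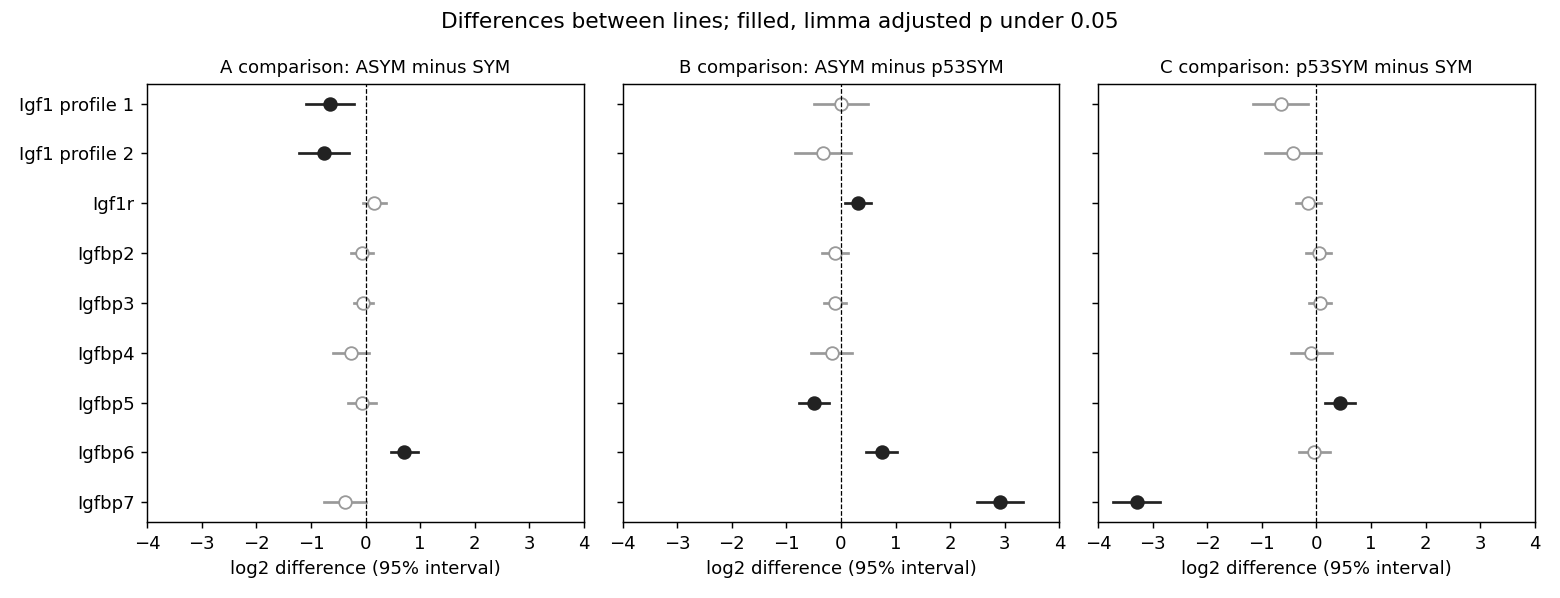
Log2 differences between lines with 95% intervals from limma for the 9 profiles in the A, B and C comparisons, filled where the adjusted p is under 0.05. Igfbp7 stands at 2.91 in B and -3.29 in C, and Igfbp6 at 0.71 in A and 0.74 in B.

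Other genes of the pathway were read from lists of ligands, receptors, binding proteins, proteases, adaptors, PI3K and AKT signalling, IGF2 mRNA-binding proteins and CCN proteins. Of 58 listed genes, 55 were found, with 59 profiles. In A, 7 profiles were higher and 8 lower in ASYM, beside 10.9% and 11.0% of all probe sets. Without ASYM replicates 1, 2 and 3 these were 8 and 3, 4 and 3, and 7 and 7. Without SYM replicates 1, 2 and 3 they were 7 and 8, 7 and 5, and 6 and 5. In B, 5 were higher and 8 lower in ASYM, beside 15.6% and 15.5%. In C, 10 were higher and 11 lower in p53SYM, beside 10.2% and 15.1%. The counts of single lists given next have the same shares of all probe sets as background. With the hybridization-control level as a block, limma called none of the 59 in B, and 8 had an unadjusted p under 0.05. The list medians were -0.09, -0.06 and 0.03, beside -0.06, -0.06 and 0.04 over all probe sets.

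Among the receptors, Igf2r was called in all 3 comparisons. This receptor takes up and clears IGF2 without the kinase signal of Igf1r. It was at 8.96, 9.17 and 8.90 in ASYM, 7.56, 7.69 and 7.40 in SYM, and 8.47 and 8.38 in p53SYM, with no overlap between lines. It was higher in ASYM than in SYM by 1.46 (SE 0.106, adjusted p = 2.2e-05), higher in ASYM than in p53SYM by 0.58 (adjusted p = 0.0057) and higher in p53SYM than in SYM by 0.88 (adjusted p = 0.00058). Against p53SYM it did not pass once that line's replicate 2 was left out (0.54, adjusted p = 0.056), nor with the hybridization-control level as a block (0.36, adjusted p = 0.34). The other 4 receptor profiles, of Ghr, Insr and Insrr, passed in no comparison. Among the ligands, Ins2 was lower in ASYM than in p53SYM by limma (-0.63, adjusted p = 0.0032), and so was Ins1 (-0.45, adjusted p = 0.047). Ins2 was also higher in p53SYM than in SYM (0.36, adjusted p = 0.041), a call lost in 10 of 18 alternatives. Igf2 passed in none. The Ins1 call was lost without ASYM replicate 1 (adjusted p = 0.13) or 2 (0.098), SYM replicate 2 (0.064) or 3 (0.05), or p53SYM replicate 1 (0.095) or 2 (0.23), and with only the 2 groups fitted (0.057). The block ended both insulin calls of ASYM against p53SYM (Ins2 -0.38, adjusted p = 0.26, and Ins1 -0.26, adjusted p = 0.63). It also ended that of Ins2 in p53SYM against SYM (0.19, adjusted p = 0.41). Igfals, which encodes the partner of IGF and IGFBP3 in blood, was lower in ASYM than in p53SYM (-0.56, adjusted p = 0.036), a call lost without ASYM replicate 1 (0.078) or 2 (0.11) or p53SYM replicate 2 (0.33), with only the 2 groups fitted (0.054), with arrays quantile-normalized again (-0.43, adjusted p = 0.098) and with the block (-0.37, adjusted p = 0.55). Igfbp1 and Igfbpl1 passed in none.

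Genes that cut IGF-binding proteins were listed together with Stc1 and Stc2, whose products inhibit PAPPA. Of the 8 profiles, 7, 4 and 5 did not pass in A, B and C. Those that passed in B and C went in both directions. Adam12, a metalloprotease that cuts IGFBP3 and IGFBP5, was at 8.05, 7.66 and 8.09 in ASYM, 8.41, 7.97 and 8.11 in SYM, and 6.93 and 6.92 in p53SYM. The p53SYM arrays were low (ASYM minus p53SYM 1.01, adjusted p = 0.0015, and p53SYM minus SYM -1.23, adjusted p = 0.00042). Pappa, the protease of IGFBP4, was lower in p53SYM than in SYM by limma (-0.85, adjusted p = 0.036). That call was lost without SYM replicate 1 (adjusted p = 0.098) or 3 (0.091). With the hybridization-control level as a block it was lost at a larger difference (-1.08, adjusted p = 0.074). It was also lost without p53SYM replicate 1 (-0.70) or 2 (-1.0), which leaves that line 1 array. Htra1, a secreted serine protease, was lower in ASYM than in both other lines (-0.59 against SYM and -0.97 against p53SYM, adjusted p = 0.0067 and 0.00081). Of 8 profiles of this list, 1 was lower in A, 1 was higher and 3 lower in B, and 1 was higher and 2 lower in C. Stc1 was 1 of the 3 (-0.56, adjusted p = 0.014), lost without p53SYM replicate 2 (0.11) and with the block (-0.21, adjusted p = 0.62), and Stc2 passed in none.

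Some adaptors and PI3K and AKT genes differed from SYM, in both directions. In A and in C alike, 8 of 11 adaptor profiles and 12 of 21 PI3K and AKT profiles did not pass. Irs1, the docking protein of the receptor, was at 10.96, 11.40 and 11.33 in ASYM, 10.56, 10.81 and 10.76 in SYM, and 11.57 and 11.55 in p53SYM. It was higher than in SYM by 0.52 in ASYM (adjusted p = 0.014) and by 0.85 in p53SYM (adjusted p = 0.0016). Shc1 was higher than in SYM by 0.63 and 0.71 (adjusted p = 0.013 and 0.011), Pik3r3, a regulatory subunit of PI3K, by 1.48 and 1.05 (adjusted p = 0.00013 and 0.0013), and Foxo1, a transcription factor that AKT restrains, by 0.59 and 0.66 (adjusted p = 0.011 and 0.0094). Pik3cb, a catalytic subunit of PI3K, was lower than in SYM (-0.42 and -0.60, adjusted p = 0.019 and 0.0054). So were the first profile of Rps6kb1, a kinase of ribosomal protein S6 (-0.42 and -0.56, adjusted p = 0.0085 and 0.0029), and Eif4ebp1, a translation repressor downstream of mTOR (-0.45 and -0.57, adjusted p = 0.029 and 0.014). The second Rps6kb1 profile, near the dim end, was lower in ASYM (-0.54, adjusted p = 0.019, and 0.065 or 0.062 without ASYM replicate 1 or 2) and did not pass in p53SYM (-0.31, adjusted p = 0.17). Pik3r2, another regulatory subunit, was higher (0.44 and 0.50, adjusted p = 0.015 and 0.013). Single arrays carried some of these calls. Without ASYM replicate 2 the ASYM calls of Irs1 (adjusted p = 0.059), Shc1 (0.058), Pik3cb (0.069), Pik3r2 (0.055) and Eif4ebp1 (0.091) were lost. Without SYM replicate 3 those of Pik3cb (0.07), Pik3r2 (0.057) and Eif4ebp1 (0.10) were lost, and that of Eif4ebp1 also without ASYM replicate 1 (0.087) or SYM replicate 2 (0.10). Without p53SYM replicate 2 the p53SYM calls of Shc1 (0.082), Foxo1 (0.11), Pik3r2 (0.10) and Eif4ebp1 (0.11) were lost. The hybridization-control block ended the p53SYM calls of Shc1 (0.75, adjusted p = 0.07) and Foxo1 (0.64, adjusted p = 0.079), with differences about as large. For ASYM against SYM the block is the same fit as leaving out SYM replicate 3. The differences there were -0.375 for Pik3cb, 0.39 for Pik3r2 and -0.35 for Eif4ebp1 (adjusted p = 0.07, 0.057 and 0.10). Tsc2, an inhibitor of mTOR, was lower in p53SYM than in both other lines (ASYM minus p53SYM 0.61, adjusted p = 0.0023, and p53SYM minus SYM -0.60, adjusted p = 0.0022). Of 21 PI3K and AKT profiles, 3 were higher and 6 lower in A, 2 higher and 1 lower in B, and 4 higher and 5 lower in C. Of 11 adaptor profiles, 2 were higher and 1 lower in both A and C, and none was higher and 1 lower in B. The lower ones were Grb2 in A (-0.61, adjusted p = 0.017), Irs2 in B (-0.43, adjusted p = 0.049) and Socs3 in C (-0.37, adjusted p = 0.041). Each of these calls was lost with the block and without some single arrays.

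CCN proteins share a domain with the IGF-binding proteins. Of 5 profiles, 1 was higher in A, 1 was higher in B, and 1 was higher and 2 lower in C, while Ccn1 and Ccn5 passed in none. Ccn3 was at 10.25, 11.51 and 10.37 in ASYM, 8.73, 9.19 and 9.13 in SYM, and 10.83 and 10.69 in p53SYM, and so was higher in both p53-expressing lines (1.69 and 1.74 over SYM, adjusted p = 0.002 and 0.0027). Ccn2 was at 12.36 and 12.37 in p53SYM against 13.17 or more in the other lines (ASYM minus p53SYM 1.2, adjusted p = 0.00057, and 0.058 with the hybridization-control level as a block, and p53SYM minus SYM -1.1, adjusted p = 0.00075). Ccn4 was lower in p53SYM than in SYM (-0.65, adjusted p = 0.021). That call was lost with the block (-0.78, adjusted p = 0.06) and with arrays quantile-normalized again (-0.54, adjusted p = 0.059). It was also lost without SYM replicate 3 (-0.58, adjusted p = 0.057) or p53SYM replicate 1 (-0.46, with 1 array of that line left). Igf2bp3 was lower in p53SYM than in SYM (-0.63, adjusted p = 0.0032).

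**Figure D4:**
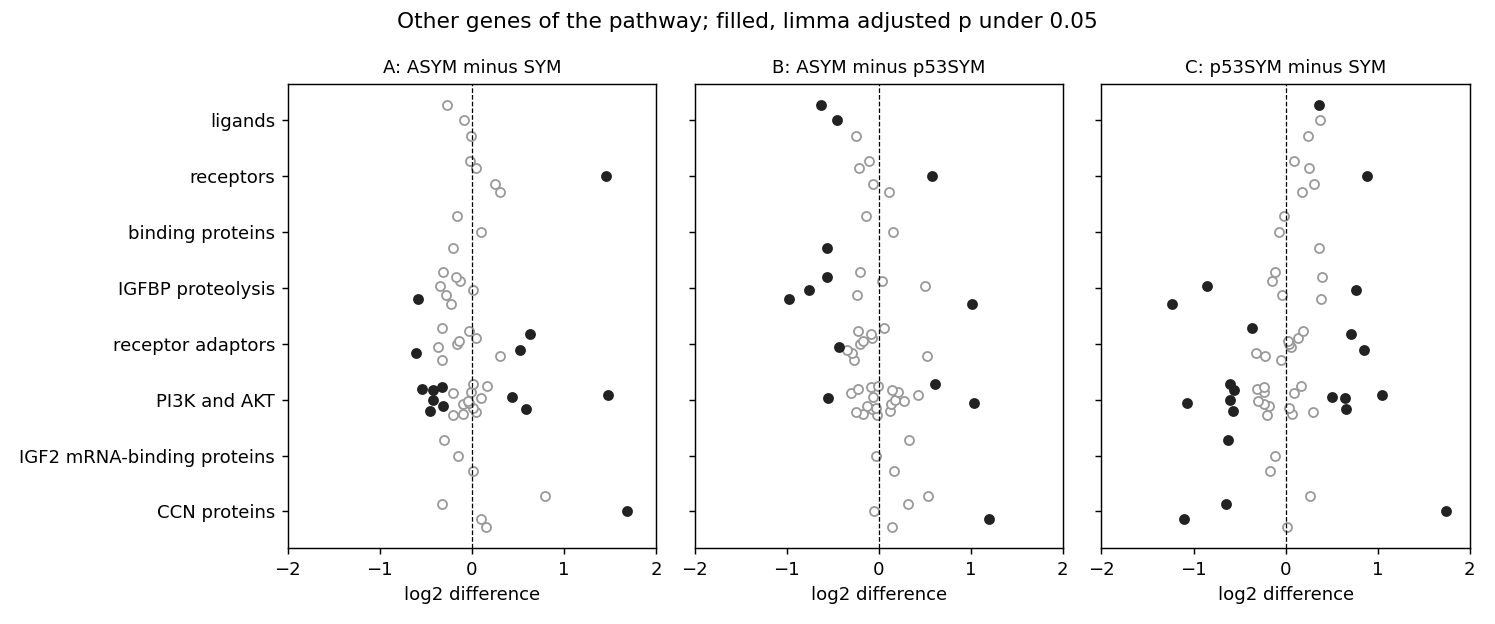
Log2 differences of 59 profiles from 8 lists of pathway genes in the A, B and C comparisons, 1 point a profile, filled where the limma adjusted p is under 0.05. Igf2r is the filled receptor at 1.46 in A, and Ccn3 the filled CCN point at 1.69 in A and 1.74 in C.

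For each called member, genes with the most similar values over the 8 arrays, up to 3 of them, were taken from 12209 profiles with a mean above the 25th percentile. For Igfbp7 they were Tmcc3 (r = 0.994), Acot7 (0.993) and Wdr24 (0.993). For Igfbp6 they were Trappc1 (0.992), Cdkn2b (0.990) and Anxa8 (0.988). For the first Igf1 profile they were Keap1 (0.984), L1cam (0.967) and Mms19 (0.966), and for the second profile Adsl and Tspan15 (0.982 each). For Igf1r they were Zdhhc5 (0.975), Arhgef10 (0.973) and Pfkfb4 (0.960), and for Igfbp5 Oxt (0.985), Cd40 (0.984) and Muc20 (0.982). The 8 arrays come from 3 lines, so these values mostly reflect differences between lines. Similar shape does not mean similar size, since Acot7 differed by 0.39 between ASYM and p53SYM and Tmcc3 by 1.74.

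Fibroblast markers were found in all lines. All 10 were found, Vim was the brightest, and the log2 of their summed levels was 15.64, 15.76 and 15.74 in ASYM, 15.35, 15.45 and 15.46 in SYM, and 15.45 and 15.29 in p53SYM. Thy1 was near the dim end, at 3.81 to 4.63. In A, 2 of 10 were higher and 1 lower in ASYM, beside 10.9% and 11.0% of all probe sets. They were Fn1 (0.70, adjusted p = 0.00032), Pdgfrb (0.38, adjusted p = 0.0099) and Thy1 (-0.30, adjusted p = 0.045). The Thy1 call was lost in 12 of 17 alternatives, among them the hybridization-control block (-0.24, adjusted p = 0.15). In B, 5 of 10 were higher and 1 lower in ASYM, beside 15.6% and 15.5% of all probe sets. Among the higher ones were Col3a1 by 2.42 (adjusted p = 0.0013), Col1a1 by 1.49 (adjusted p = 0.00091) and Pdgfra by 1.51 (adjusted p = 0.00046), while Col1a2 did not pass (0.25, adjusted p = 0.43). Fitting the hybridization-control level as a block, the B calls of Col3a1 (2.69, adjusted p = 0.056), Fn1 (0.42, 0.19), Vim (0.43, 0.19) and Thy1 (-0.48, 0.16) were lost. Their differences without the block were 2.42, 0.42, 0.39 and -0.67. That of Vim was also lost with arrays quantile-normalized again (0.08, adjusted p = 0.51) and without p53SYM replicate 2 (0.30, adjusted p = 0.12), and that of Fn1 without p53SYM replicate 1 (0.38, adjusted p = 0.05). In C, 3 were higher and 3 lower in p53SYM, beside 10.2% and 15.1%. The lower ones were Col3a1 (-2.68, adjusted p = 0.00062), Col1a1 (-1.06, adjusted p = 0.0047, and 0.052 without p53SYM replicate 1) and Pdgfra (-1.04, adjusted p = 0.003). Pdgfrb (0.33, adjusted p = 0.03), Thy1 (0.37, adjusted p = 0.028) and Fn1 (0.28, adjusted p = 0.048) were higher. With the block these 3 calls were lost (0.425, 0.244 and 0.278, adjusted p = 0.052, 0.28 and 0.19). Each was lost without SYM replicate 1 or either p53SYM array, that of Pdgfrb also without SYM replicate 3, that of Thy1 without SYM replicate 2 and that of Fn1 without any 1 array (adjusted p 0.058 to 0.12, 0.057 to 0.16 and 0.057 to 0.23).

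Of 7 muscle markers, 2 were higher and 1 lower in ASYM than in p53SYM, beside 15.6% and 15.5% of all probe sets, and the list median was -0.09. Tagln was higher (ASYM minus p53SYM 3.01, adjusted p = 5.8e-06), and so was Acta2, the brightest (0.86, adjusted p = 0.0003). Myh11 was lower (-0.35, adjusted p = 0.05, under the threshold before rounding), a call lost without any 1 ASYM or p53SYM array or SYM replicate 2 (adjusted p 0.068 to 0.19), with the hybridization-control level as a block (-0.09, adjusted p = 0.84) and with arrays quantile-normalized again (-0.22, adjusted p = 0.17). In C, none was higher and 2 were lower in p53SYM, beside 10.2% and 15.1% of all probe sets. These were Tagln (-2.75, adjusted p = 6.6e-06) and Acta2 (-0.89, adjusted p = 0.00023). In A, none passed. The summed log2 level was 14.35 to 14.67 in ASYM and SYM and 13.33 and 13.37 in p53SYM. Myod1, Myf5 and Myog ran from 2.97 to 4.99.

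Of 7 blood and endothelial markers found, 3 were lower in ASYM than in p53SYM by limma, beside 15.5% of all probe sets, and 4 did not pass. The 3 blood cell markers summed to 5.98 to 6.23 in ASYM and SYM and to 6.40 and 6.38 in p53SYM, with Csf1r the brightest. Csf1r (-0.44, adjusted p = 0.011) and Adgre1 (-0.36, adjusted p = 0.032) were lower in ASYM than in p53SYM, while Ptprc averaged 3.50, 3.66 and 3.61 in ASYM, SYM and p53SYM. Those calls were lost without either p53SYM array (0.057 and 0.06 for Csf1r, 0.082 and 0.16 for Adgre1), and that of Adgre1 without any 1 ASYM array (0.064, 0.075 and 0.063). The 4 endothelial markers summed to 6.63 to 7.03 in ASYM and SYM and to 7.15 and 7.33 in p53SYM, with Kdr the brightest. Kdr was lower in ASYM than in p53SYM (-0.76, adjusted p = 0.00088) and higher in p53SYM than in SYM (0.44, adjusted p = 0.013, and 0.052 without SYM replicate 2 or 0.12 without p53SYM replicate 2). Csf1r was also higher in p53SYM than in SYM (0.33, adjusted p = 0.042) and Kdr lower in ASYM than in SYM (-0.32, adjusted p = 0.038), calls lost in several alternatives. None of these calls of Csf1r, Adgre1 and Kdr was kept with the hybridization-control level as a block (adjusted p 0.096 to 0.52). The 6 epithelial markers summed to 6.65 to 7.18, with Krt5 the brightest. Epcam, Ptprc and Pecam1 stayed at or under 4.61. The part of all these markers in the Igfbp7 difference was not tested.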

How the data were processed

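Total RNA of 8 cultures was hybridized to Affymetrix mouse arrays. The deposited log2 values are RMA levels that the authors computed for probe sets regrouped by RefSeq transcript, and they were used without further normalization. The genome build behind the probe sets is not given in the sources used here. Of 22587 probe sets, 64 controls were set aside. The RefSeq gene table (GRCm38.p6) matched 18294 of the remaining 22523 (81.2%), and 1 was named from the study's table of called genes.

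A mean for each of the 3 lines was fitted on all 8 arrays with limma 3.58.1 (R 4.3.3), with Benjamini-Hochberg adjustment over 22523 probe sets and a call at an adjusted p under 0.05. The rank product test was re-implemented with 100 permutations and a pfp (the estimated share of false positives) under 0.05. Both were tested on simulated data. Python 3.11.15, numpy 2.4.6, pandas 2.3.3 and matplotlib 3.10.9 were used for the rest. The number of arrays limits the precision.

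Named genes could be the members, pathway-list genes called in at least 1 comparison, label checks and p53 targets, and the 3 genes most correlated with each called member, among profiles of 1 gene with a mean above the 25th percentile. Some called list genes are counted and not named, and 1 correlated gene is not reported here. Uncalled list genes and cell type markers named beside a count of 5 or fewer, or as defining markers, were added after their values were seen. The members and lists were chosen with earlier results of these data known. Alternatives covered the arrays in the fit, blocks, the prior, filters, normalization, identical profiles, controls, thresholds, the rank product null and each array left out.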

Additional observations from a re-analysis of the deposited data

How the results depend on the processing

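The 2 Igfbp7 calls were kept in all 18 alternatives. The 27 member differences had 477 alternative values. Of these, 403 kept direction and side of the threshold, 44 lost a call, 7 gained one and 23 changed sign. For 95 differences of other list genes and markers, not all of them named above, 258 of 1704 lost the call and 0 changed sign. No cause of the changes below was tested, beyond what an alternative's own construction sets.

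With calls also needing a log2 change of at least 1, limma called 0, 1 and 1 members in A, B and C, 3, 3 and 5 other pathway profiles, and 464, 681 and 735 probe sets. With the hybridization-control level as a block it called 1 member in each comparison, 0 other pathway profiles in B (8 at an unadjusted p under 0.05), and 708 and 3066 probe sets in B and C. Quantile normalization left 2 members in B. At a pfp under 0.01 the rank product test called 0 members in A and 300, 164 and 200 probe sets, and with each ranking permuted independently 4, 2 and 2 members and 4687, 3239 and 3196 probe sets.

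Leaving out each array in turn, limma called 1 to 4 members in A, 3 in B and 1 to 3 in C, 7 to 16, 8 to 15 and 14 to 21 other pathway profiles, and 3493 to 4637, 2781 to 7261 and 3093 to 5625 probe sets. The rank product test called 0 to 1 members in A and 1 in B and C, and 354 to 456, 138 to 178 and 168 to 206 probe sets. Member profiles without overlap numbered 4 to 6, 7 to 8 and 3 to 6. A left-out p53SYM array leaves a single one, assumed to vary like the other lines.

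With replicate number as a replicate block, limma called 3, 4 and 3 members, 18, 16 and 23 other pathway profiles, and 5382, 8341 and 6376 probe sets. The numbers do not pair the arrays: correlations of same-numbered deviations ran from -0.225 to 0.381, 3 of 7 were over 0.1, and 4 of 8 arrays correlated best with their own number. The block turned Igf1 profile 1 in B to -0.042 and Igfbp4 in C to 0.001, and added calls of Igf1 profile 1 in C (-0.606) and profile 2 in B (-0.473).

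The other sign changes were in uncalled differences. With the hybridization-control block, Igf1 profile 2 in B was 0.158, Igfbp2 0.009, 0.125 and -0.116 in A, B and C, Igfbp4 in B 0.064 and Igfbp6 in C 0.032. Quantile normalization gave Igfbp2 0.003, 0.055 and -0.051 in A, B and C, and Igfbp3 0.023 and 0.012 in A and B. Centring on medians gave Igf1 profile 1 in B -0.009. Without single arrays, Igf1 profile 1 in B ran from -0.07 to 0.101, Igfbp2 from -0.116 to 0.009 in A and -0.004 to 0.121 in C, Igfbp5 in A from -0.174 to 0.012 and Igfbp6 in C from -0.078 to 0.042. Signal near background, under the 25th percentile of 4.3, limits Igfbp2, Igfbp3 and Igfbp5.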
